A study of Mus musculus with 8 samples.

Results

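The genes described here encode subunits of the phagocyte NADPH oxidase and the proton channel that works beside it. They are taken from the count table by name, although earlier results of these data were known when the list was made, and comprise 6 of its 24421 genes: Cybb, Cyba, Ncf1, Ncf4, Rac2 and Hvcn1. All 6 had counts in each of the 8 libraries and all 6 were among the 12254 genes tested. RNA was sequenced from bone marrow neutrophils, isolated with magnetic beads, of female C57BL/6 mice aged 8 weeks. The mice were wild type (WT) or Padi4-/- (Padi4 KO), in which exon 1 of Padi4, the gene of a peptidylarginine deiminase that converts histone arginine to citrulline, is deleted. Neutrophils of each genotype received R848, a small-molecule agonist of the endosomal receptor TLR7, at 1 µg/ml for 6 h, or no stimulus. Each of the 4 groups held 2 libraries, and nothing states that these came from separate mice, so p-values measure the spread between libraries, which may be technical. The titles of the unstimulated libraries give 0 h, whereas the protocol describes cells left unstimulated over the same incubation, so an effect of the culture itself cannot be told apart from that of R848.

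The oxidase transfers electrons from cytosolic NADPH across the membrane to oxygen and so makes superoxide, the first product of the respiratory burst with which neutrophils kill ingested microbes. At rest it is in pieces. The catalytic subunit, encoded by Cybb, and its partner, encoded by Cyba, form a flavocytochrome in granule and plasma membranes. The organizer subunit encoded by Ncf1 and the adaptor encoded by Ncf4, which binds a phosphoinositide of the phagosome membrane, wait in the cytosol together with the GTPase Rac2. Electron transfer leaves positive charge behind, which the proton channel encoded by Hvcn1 lets out. Inherited loss of the subunits causes chronic granulomatous disease, and superoxide from this enzyme is one trigger of the release of neutrophil extracellular traps, in which the enzyme encoded by Padi4 also takes part.

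In the GENCODE annotation of GRCm38, the build called mm10, the 6 genes lie on 4 chromosomes. Cybb spans chrX:9435252-9487771 on the minus strand and Cyba chr8:122424776-122432930, also on the minus strand. Ncf1 lies at chr5:134220053-134229625 on the minus strand, and 408 bp (11.1%) of its exons overlap the gene Gtf2ird2 of the other strand. Ncf4 at chr15:78244801-78262580 on the plus strand and Rac2 at chr15:78559167-78572783 on the minus strand lie on the same chromosome without overlapping. Hvcn1 spans chr5:122206804-122242297 on the plus strand, and 1574 bp (44.2%) of its exons overlap Tctn1 of the other strand. The strand setting of the counting is not given in the sources used here, so reads of Hvcn1 and Tctn1 in the shared part, and likewise of Ncf1 and Gtf2ird2, may be assigned to either gene or to none.

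Promoter sequence is shown for the membrane subunits and the organizer, the only ones of the 6 genes for which a promoter window was available. RefSeq windows of GRCm38.p6 matched these 3 of the 6 genes, and the 250 bases before each annotated start are printed 5′ to 3′ on the strand of the gene. They cover chrX:9469325-9469574 for Cybb, chr8:122432941-122433190 for Cyba and chr5:134229626-134229875 for Ncf1, all on the minus strand. The window of Cybb lies inside the span that GENCODE gives the gene, because a longer transcript starts further upstream. Capitals mark matches, on either strand, to 1 of 5 motifs searched: an ETS core (GAGGAA), an interferon-stimulated response element (a repeat of GAAA across a gap of 2 bases), a CCAAT box (CCAAT), an AP-1 site (TGANTCA) and a GC box (GGGCGG). No match overlapped another.
Cybb: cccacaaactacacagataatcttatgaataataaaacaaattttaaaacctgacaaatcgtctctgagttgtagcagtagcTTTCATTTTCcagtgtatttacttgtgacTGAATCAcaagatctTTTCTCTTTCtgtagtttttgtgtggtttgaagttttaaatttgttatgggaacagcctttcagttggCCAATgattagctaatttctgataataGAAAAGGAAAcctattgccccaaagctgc
Cyba: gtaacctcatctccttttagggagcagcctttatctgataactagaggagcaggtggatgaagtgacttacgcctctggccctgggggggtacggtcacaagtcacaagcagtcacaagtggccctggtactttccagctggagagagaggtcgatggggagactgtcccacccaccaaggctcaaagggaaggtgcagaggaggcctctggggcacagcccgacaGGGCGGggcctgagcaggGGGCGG
Ncf1: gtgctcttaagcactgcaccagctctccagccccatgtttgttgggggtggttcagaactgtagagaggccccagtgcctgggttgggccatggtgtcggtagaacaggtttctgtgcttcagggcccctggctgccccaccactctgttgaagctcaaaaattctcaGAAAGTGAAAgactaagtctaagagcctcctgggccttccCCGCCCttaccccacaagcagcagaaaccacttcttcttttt
The Cybb window was poor in G and C (34.0%) and held the response element 3 times, with first bases 168, 124 and 29 bases before the start, besides an AP-1 match at 139 and a CCAAT box at 56. The Cyba window (60.0% G and C) held 2 GC boxes, at 24 and 6 bases before the start, and the Ncf1 window (54.4%) held 1 response element at 82 and 1 GC box at 42. Of 32851 such windows of all genes, 2.98% held the response element, 6.75% the AP-1 letters, 32.7% the GC box, 33.8% the CCAAT box and 23.3% the ETS core, which was in none of the 3. No motif was in all 3 windows. A match is a run of letters and not evidence of binding.

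The libraries held between 562446 and 1177972 reads counted on genes, at which 3 reads correspond to 2.55 to 5.33 CPM, the unit of reads scaled to a common library size. Padi4 itself, the check of the labels, had 912 and 909.9 CPM in the WT unstimulated libraries, 338 and 414 in WT after R848, 45.2 and 39.2 in KO unstimulated and 30.2 and 19.3 in KO after R848, so that the KO libraries were below every WT library. The summed level of 11 neutrophil marker genes was 125573 to 132190 CPM of the library total in WT unstimulated libraries, 104134 to 105716 in KO unstimulated, 104723 to 119284 in WT after R848 and 86120 to 87434 in KO after R848. Of these 11 genes, 10 were called lower in KO unstimulated and 9 in KO after R848. They moved with R848 too, with 3 called higher and 7 lower in WT, and 4 and 5 in KO. Markers of other cells moved with genotype as well: the summed erythroid markers held 110 to 147 CPM in WT unstimulated, 1270.0 to 1350 in KO unstimulated, 31.4 to 60.6 in WT after R848 and 1468 to 1489 in KO after R848, with 6 hemoglobin genes at 0 in every library. The monocyte and macrophage markers, cells that also express the oxidase, held 1573 to 1688, 2373 to 2389, 3437 to 3582 and 3698 to 3785 CPM in the same order. Their 12 genes did not move together: 4 were called higher and 5 lower with R848 in WT, and 5 and 5 in KO. Between genotypes, 7 were called higher and 1 lower in KO unstimulated, and 5 and 1 in KO after R848. Stromal and endothelial markers held 219 to 251 CPM in WT unstimulated and 596 to 751 in KO unstimulated (3 of 6 genes called higher), and platelet markers 90.7 to 98.3 and 178 to 202 (2 of 6 called higher). After R848 the stromal sums were 35.9 to 41.0 CPM in WT and 48.4 to 51.1 in KO, the platelet sums 13.5 to 18.0 and 35.7 to 41.4. The summed markers of immature neutrophils were 73132 to 74705 CPM in WT unstimulated, 56658 to 57033 in KO unstimulated, 70046 to 71591 in WT after R848 and 53418 to 54351 in KO after R848. Of these 11 genes, all 11 were called lower in KO unstimulated and 10 in KO after R848, and 7 were called lower and 2 higher with R848 in each genotype. The summed markers of mature neutrophils, a list that holds Padi4 itself, moved with R848 as well. They held 27554 to 27821 CPM without it and 13312 to 13993 with it in WT (8 of 11 called lower and 1 higher). In KO they held 20609 to 20969 without it and 12139.5 to 12462 with it (6 of 11 called lower and 3 higher). The part of these levels in the R848 responses was not tested. The list of neutrophil markers shares genes with those of immature and mature neutrophils, so their calls are not separate measurements. B cell markers stayed at or below 17.6 CPM and T and NK cell markers at or below 40.6 CPM. Fewer neutrophils in a sample and less of an RNA per neutrophil cannot be told apart in these bulk libraries, and the part of the other cell types in the differences below was not tested.

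After R848, the 5 genes that encode oxidase proteins were higher and the proton channel gene was lower, in both genotypes. Values per library below are CPM scaled with TMM factors, and the threshold for a call was a false discovery rate under 0.1 in edgeR's quasi-likelihood test over all genes. In WT neutrophils 5 of the 6 genes were called higher, where 13.5% of all genes tested were, and 1 was called lower, where 16% were. In KO neutrophils the counts were again 5 and 1, against 19.2% and 15.9% of all genes. These shares include 5342 genes with fewer than 10 counts on average. Over the 7376 genes kept by edgeR's own filter, 21.0% were called higher and 27.9% lower in WT, and 28.1% and 25.8% in KO. Under the further limit of more than 2-fold, WT kept 0 of the 5 rises (7.17% of all genes) and the fall of Hvcn1 (10.8% of all genes). KO kept the rises of 3 genes, Ncf1, Cyba and Ncf4 (8.07% of all genes), and not the fall of Hvcn1 (8.84% of all genes). The 2-fold limit was close to several values. In KO 1 rise, that of Ncf1, passed it under relative log expression factors, in DESeq2 or with edgeR's own filter, and Hvcn1 passed it with library size alone or thinned counts. In WT the rise of Ncf4 passed it with thinned counts or when only the libraries compared were fitted. The 6 genes had a median log2 change of 0.61 in WT neutrophils and 0.94 in KO neutrophils, while the median over genes with at least 10 counts on average was -0.07 and 0.08. The median of all genes named below is always taken over that set, and not over every gene tested.

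Cybb, the catalytic subunit, had 2208 and 2215 CPM in WT unstimulated libraries and 3705 and 3229 after R848. In KO it had 1655 and 1619.7 CPM without stimulation and 2611 and 2583 after R848. Both stimulated groups were above their own controls without overlap, and all KO values after R848 were above the WT unstimulated values. The log2 change was 0.65 ± 0.07 (SE, adjusted p = 4.6e-19) in WT and 0.67 ± 0.07 (adjusted p = 1.58e-21) in KO, or 1.57-fold and 1.59-fold.

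Cyba, whose protein stabilizes the catalytic subunit in the membrane and docks the organizer, had 679 and 613 CPM in WT unstimulated libraries and 842 and 1011 after R848. The KO values were 415 and 443 without stimulation and 909 and 868 after R848. Here the KO libraries started below the WT libraries and ended between the WT values after R848. The log2 change was 0.52 ± 0.09 (adjusted p = 9.7e-08) in WT and 1.05 ± 0.08 (adjusted p = 4.71e-35) in KO.

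Among the cytosolic subunits Ncf1 had the largest rise in KO and Ncf4 the largest in WT. Ncf1 had 2900.3 and 2897 CPM in WT unstimulated libraries, 4796 and 5071 in WT after R848, 1703 and 1629.8 in KO unstimulated and 4116 and 3951 in KO after R848. The 2 WT unstimulated values nearly coincided, and every group was separate from the other 3. Its log2 change was 0.77 ± 0.07 (adjusted p = 1.21e-28) in WT and 1.28 ± 0.07 (adjusted p = 6.09e-80) in KO. Ncf4 had 535 and 523 CPM in WT unstimulated libraries, 1021 and 965 in WT after R848, 398 and 423 in KO unstimulated and 888.4 and 806 in KO after R848. It changed by 0.91 ± 0.09 (adjusted p = 3.07e-21) in WT and 1.04 ± 0.08 (adjusted p = 4.84e-34) in KO on the log2 scale. In the main setting, with TMM scaling, this was the pair of responses closest to each other after that of Cybb. With relative log expression factors the responses of Ncf4 were closer (KO minus WT, -0.02) than those of Cybb (-0.14).

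Rac2, the GTPase that must be loaded with GTP for the complex to run in neutrophils, had 2119.6 and 2199.7 CPM in WT unstimulated libraries and 3141 and 3256 after R848. In KO it had 1636 and 1543 CPM without stimulation and 2832 and 2856 after R848. As for Ncf1, the 4 groups did not overlap, in the order KO unstimulated, WT unstimulated, KO with R848 and WT with R848. The log2 change was 0.57 ± 0.07 (adjusted p = 1.29e-14) in WT and 0.84 ± 0.07 (adjusted p = 5.38e-34) in KO. A stretch of 122 bp of its transcripts is 97.5% identical to Sirt5, and reads within it may be lost to either gene.

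Hvcn1, the proton channel, went the other way. It had 100.5 and 102 CPM in WT unstimulated libraries (65 and 59 reads), 36.7 and 26.6 in WT after R848 (18 and 15 reads), 55.4 and 53.0 in KO unstimulated (49 and 73 reads) and 33.8 and 28.5 in KO after R848 (38 and 31 reads). The 4 stimulated libraries lay together at the bottom whatever the genotype, and the unstimulated groups stood apart above them. The log2 change was -1.69 ± 0.26 (adjusted p = 1.93e-09) in WT, a 3.22-fold fall, and -0.79 ± 0.22 (adjusted p = 0.00171) in KO, a 1.73-fold fall. These counts are the lowest of the 6 genes, the standard errors are the widest, and the exon overlap with Tctn1 given above applies.

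**Figure D1:**
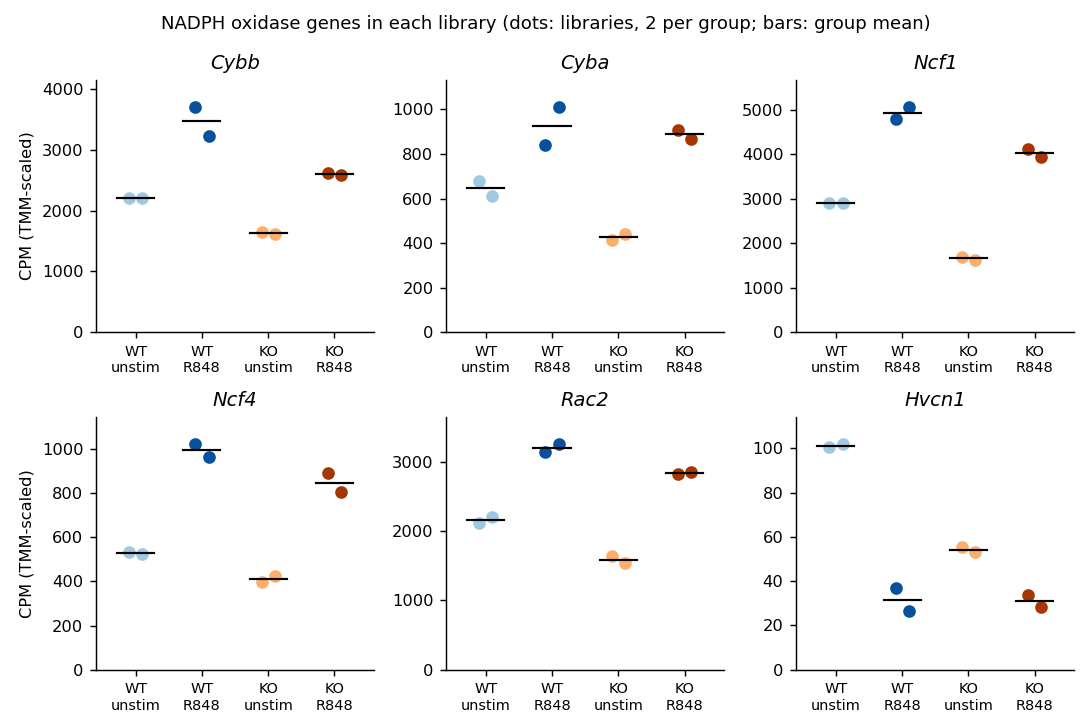
Level of each gene in each library in CPM scaled with TMM factors (y axis, starting at 0), for WT and Padi4 KO neutrophils without stimulation and with R848 (x axis). Dots are libraries, 2 for each group, and bars are group means. Cybb, Cyba, Ncf1, Ncf4 and Rac2 were higher after R848 in both genotypes, and Hvcn1 was lower.

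Without stimulation, all 6 genes were lower in KO than in WT libraries with TMM scaling, but this ordering depended on what the libraries were scaled to. At the threshold given, 6 of 6 were called lower, where 14.4% of genes tested were, or 24.5% of those kept by edgeR's own filter. The count called higher was 0, where 9.55% of genes tested were, or 15.1% of those kept by that filter. The log2 differences (KO minus WT) were -0.80 ± 0.07 for Ncf1 (adjusted p = 4.42e-29), -0.59 ± 0.09 for Cyba (adjusted p = 4.56e-09) and -0.91 ± 0.19 for Hvcn1 (adjusted p = 4.28e-05). In the main setting the count of 0 also held at an unadjusted p below 0.05 and in DESeq2, here and for the counts of 0 in the comparisons after R848 and of the responses given further on. The log2 differences of Rac2, Cybb and Ncf4 were -0.44 ± 0.07, -0.43 ± 0.07 and -0.36 ± 0.09, with adjusted p of 9.6e-09, 1.9e-08 and 0.00136. The 2 KO values were below both WT values for each of the 6 genes.

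The median difference over genes with at least 10 counts on average was -0.16 in this comparison. Relative to it the differences were -0.64 for Ncf1, -0.43 for Cyba, -0.74 for Hvcn1, -0.28 for Rac2, -0.27 for Cybb and -0.20 for Ncf4. Scaled to library size alone, 3 of the 6 genes were called lower, where 4.58% of all genes were called lower and 15.5% higher. They were Ncf1 at -0.51, Hvcn1 at -0.62 and Cyba at -0.30. Cybb at -0.15, Rac2 at -0.16 and Ncf4 at -0.07 were not called. Scaled to the summed counts of the 11 neutrophil marker genes, a setting chosen after the data were seen, 0 of the 6 were called. In that setting the median of all genes was 0.42, 29.2% of all genes tested were called higher and 0.890% lower. Cybb, Ncf4 and Rac2 were then at 0.15, 0.22 and 0.14, and Ncf1, Hvcn1 and Cyba at -0.22, -0.32 and -0.0033. At an unadjusted p below 0.05, 1 gene (Ncf1, lower) would have passed. The sign turned with this reference for Cybb, Ncf4 and Rac2 and not for Ncf1, Hvcn1 and Cyba, while by construction a change of scaling leaves the distances of the 6 genes from the median nearly as they were.

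After R848, with TMM scaling, 4 of the 6 genes were called lower in KO, where 7.81% of all genes were, and 0 higher, where 9.46% were. Over the genes kept by edgeR's own filter these shares were 13.7% and 15.1%. Cybb had a log2 difference of -0.42 ± 0.07 (adjusted p = 3.15e-08). Ncf1 differed by -0.29 ± 0.06 (adjusted p = 0.000157), Ncf4 by -0.23 ± 0.08 (adjusted p = 0.0439) and Rac2 by -0.17 ± 0.07 (adjusted p = 0.0758). Cyba at -0.06 ± 0.08 (adjusted p = 0.718) and Hvcn1 at -0.0048 ± 0.31 (adjusted p = 1) did not pass, and for these 2 genes the KO and WT values overlapped. Relative to the median of all genes Cybb was further below WT than without stimulation (-0.41 against -0.27), Ncf4 was about where it was (-0.23 against -0.20), and Ncf1 (-0.29), Rac2 (-0.17), Cyba (-0.06) and Hvcn1 (-0.0029) were nearer. Scaled to the neutrophil marker genes, Cyba, Ncf1, Ncf4 and Rac2 were called higher in KO by 0.50, 0.28, 0.35 and 0.40, with Cybb at 0.17 and Hvcn1 at 0.57 not called. In that setting the median of all genes was itself 0.57 and 38.5% of all genes were called higher and 0.873% lower. With library size alone 1 gene, Cybb, was called lower, where 3.40% of all genes were called lower and 15.3% higher.

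The R848 response was larger in KO than in WT for Cyba and Ncf1. The difference of the log2 changes (KO minus WT), tested as an interaction, was 0.52 ± 0.12 for Cyba (adjusted p = 0.002) and 0.51 ± 0.09 for Ncf1 (adjusted p = 1.35e-05). These were the 2 of 6 genes called higher, where 3.45% of all genes were, and 0 were called lower, where 1.26% were. Over the genes kept by edgeR's own filter these shares were 6.47% and 2.35%. The balance over all genes turned with the processing, to 1.31% higher and 1.90% lower with relative log expression factors, 0.286% and 0.734% with DESeq2 and 0.438% and 2.23% with thinned counts, and to 0.419% to 0.994% higher and 1.65% to 2.87% lower without any 1 of the R848 libraries. Rac2 at 0.27 ± 0.10 (adjusted p = 0.1003, just above the threshold), Hvcn1 at 0.90 ± 0.36 (adjusted p = 0.175), Ncf4 at 0.13 ± 0.12 (adjusted p = 0.73) and Cybb at 0.02 ± 0.10 (adjusted p = 1) did not pass. With relative log expression factors in place of TMM, Cybb was at -0.14 and Ncf4 at -0.02. This comparison uses the same unstimulated libraries as the one between genotypes above, so the low KO values there and the large KO responses here are not separate measurements.

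The median of all genes differed by 0.18 in the same direction, and relative to it Cyba was at 0.34, Ncf1 at 0.33, Rac2 at 0.09, Ncf4 at -0.05, Cybb at -0.16 and Hvcn1 at 0.72. Both calls were lost when WT replicate 1 with R848, KO replicate 1 with R848 or KO replicate 2 with R848 was left out, with Cyba between 0.13 and 0.59 and Ncf1 between 0.20 and 0.53 over all 8 omissions. When counts were thinned to the smallest library, Cyba was at 0.25 and Ncf1 at 0.22 with 0 genes called. In that setting Ncf1 was higher and Cybb (-0.29) lower at an unadjusted p below 0.05. DESeq2 called Ncf1 (0.35) and not Cyba (0.37, adjusted p = 0.339).

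**Figure D2:**
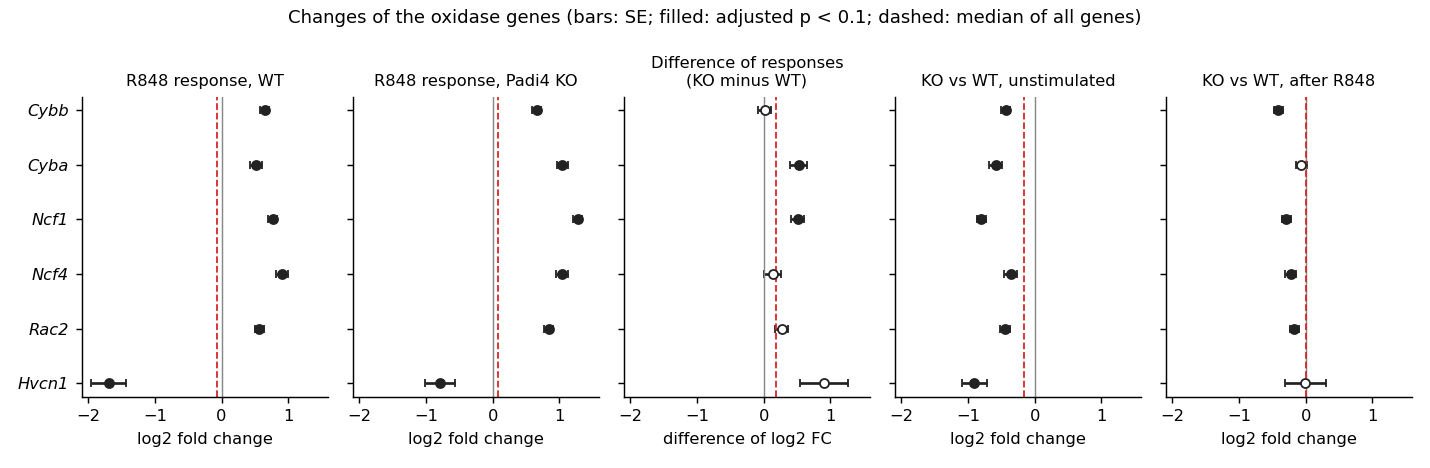
Log2 fold change of each gene (x axis) in the 5 comparisons (panels), with bars of 1 standard error and filled points for an adjusted p below 0.1 with TMM scaling. The dashed line is the median of all genes with at least 10 counts on average, and the difference panel gives the KO response minus the WT response. In the panels of the R848 responses 5 of the 6 points lie to the right of the dashed line and Hvcn1 lies to the left, while points and dashed lines of the genotype panels shift to the right together when libraries are scaled to neutrophil marker genes, where 4 of the 6 genes were called higher in KO after R848 and the median of all genes was 0.57.

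Ratios of counts between genes of 1 library do not depend on how libraries are scaled. The log2 ratio of Ncf1 to Cybb was 0.39 and 0.39 in the WT unstimulated libraries and 0.04 and 0.01 in KO unstimulated. After R848 it was 0.37 and 0.65 in WT and 0.66 and 0.61 in KO. Without stimulation the KO libraries thus held nearly equal numbers of Ncf1 and Cybb reads while the WT libraries held 1.31 Ncf1 reads for each Cybb read, and with R848 the genotypes overlapped. The ratio of Cyba to Cybb was -1.70 and -1.85 in WT unstimulated, -1.996 and -1.87 in KO unstimulated, -2.14 and -1.68 in WT after R848 and -1.52 and -1.57 in KO after R848. The WT libraries with R848 were far apart in this ratio, on either side of both WT unstimulated libraries, and the KO libraries with R848 were above all others.

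Rac2 and Cybb reads were close to equal in number throughout, with log2 ratios of -0.06 and -0.01 in WT unstimulated, -0.02 and -0.07 in KO unstimulated, -0.24 and 0.01 in WT after R848 and 0.12 and 0.15 in KO after R848. Without stimulation the genotypes overlapped in this ratio. The ratio of Ncf4 to Cybb was -2.05 and -2.08 in WT unstimulated, -2.06 and -1.94 in KO unstimulated, -1.86 and -1.74 in WT after R848 and -1.56 and -1.68 in KO after R848. It was higher with R848 in both genotypes, by 0.26 in WT and 0.38 in KO, and did not separate the genotypes without stimulation. Of the ratios to Cybb, that of Hvcn1 moved most, by -2.34 in WT and -1.47 in KO. With 2 libraries a group, an exact permutation test of a single ratio cannot give a two-sided p below 0.333, so these ratios are a description.

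**Figure D3:**
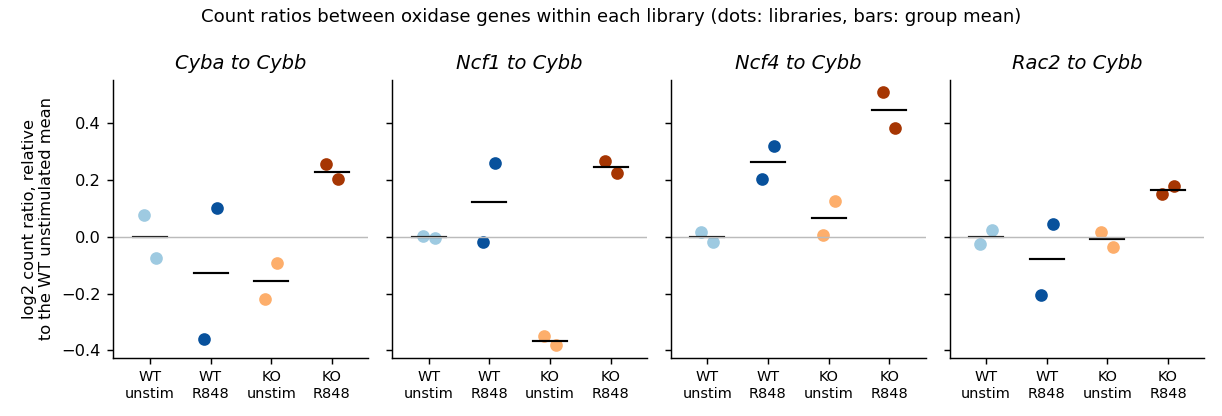
Log2 ratio of the counts of 2 genes within each library (y axis), relative to the mean of the WT unstimulated libraries, in the 4 groups (x axis). Dots are libraries and bars are group means of 2. The ratio of Ncf4 to Cybb was higher after R848 by 0.26 in WT and 0.38 in KO, and the ratio of Ncf1 to Cybb differed between KO and WT without stimulation by -0.37.

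Levels of different genes were compared as CPM per kilobase of merged exons. In WT unstimulated libraries Ncf1 was highest at 791 ± 0.608 (SD, n = 2), followed by Rac2 at 696 ± 18.2, Cyba at 622 ± 44.8, Cybb at 381 ± 0.910, Ncf4 at 262 ± 4.12 and Hvcn1 at 28.4 ± 0.273. Each neighbouring pair was separate in its 2 values. In KO unstimulated libraries Rac2 at 512 ± 21.3 stood above Ncf1 at 455 ± 14.1, and the other genes kept the order. After R848 the order was as in WT unstimulated libraries, with Ncf1 at 1347 ± 53.1 in WT and 1101 ± 31.9 in KO, and Hvcn1 at 8.87 ± 2.01 and 8.74 ± 1.05. Per base of the longest transcript instead of merged exons, Cyba at 868 stood above Rac2 at 711 in WT unstimulated libraries, so the order of these 2 genes depends on the transcript assumed.

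**Figure D4:**
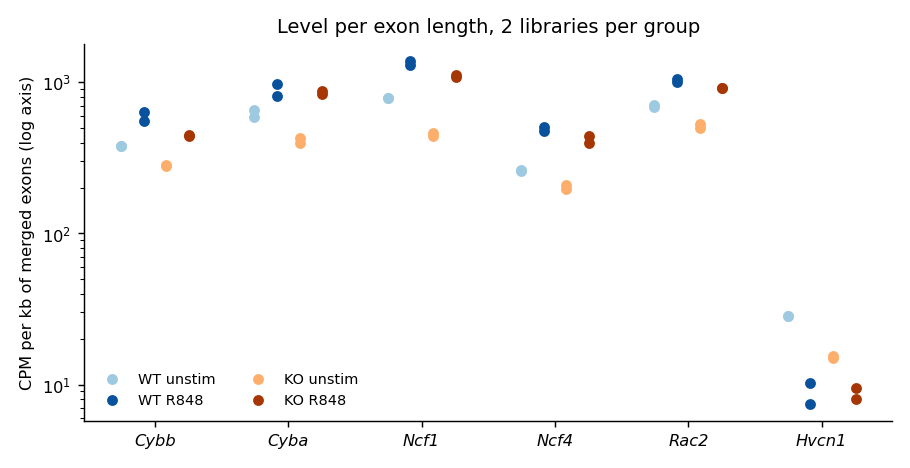
Level of each gene in CPM per kilobase of merged exons (y axis, log scale) in the 4 groups, with 1 dot for each of 2 libraries. Hvcn1 lay below the oxidase subunits in every group, from 28.4 on average in WT unstimulated libraries to 8.74 in KO after R848, and Ncf1 and Rac2 exchanged places in KO unstimulated libraries.

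Other genes of the pathway were followed in lists of 105 genes, of which 93 were tested. Of the 93, 33 were called higher and 26 lower after R848 in WT, and 43 and 20 in KO. Without stimulation 8 were called higher and 38 lower in KO than in WT, and after R848 11 and 15. The signed difference of the responses (KO minus WT) was called above 0 for 20 and below 0 for 5, which includes genes that were lower after R848. The shares of all genes called, given above for each comparison, apply to these counts as well, and so does the dependence of the genotype comparisons on scaling.

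BC017643, the older symbol of the chaperone gene Cybc1, whose protein is needed for the flavocytochrome to accumulate, was called higher after R848 by 0.57 ± 0.18 (log2, adjusted p = 0.00833) in WT and 0.54 ± 0.14 (adjusted p = 0.000847) in KO. Of 20 genes of Rac GTPases and their regulators, 6 were called higher and 5 lower in WT and 10 and 4 in KO. Rap1b, a small GTPase of the Rap family, was higher by 1.43 ± 0.09 in WT and 1.53 ± 0.08 in KO. Dock5, an exchange factor that loads Rac with GTP, was higher by 0.74 ± 0.11 and 1.23 ± 0.10. Arhgap15, which makes Rac hydrolyse its GTP, changed by -2.61 ± 0.30 and -2.77 ± 0.27, from 107 and 104 CPM to 22.4 and 12.4 in WT. The exchange factor genes Arhgef6 (-1.93 ± 0.23 in WT) and Tiam2 (-3.49 ± 0.48 in WT) were also lower. Arhgdib, which holds Rac2 in the cytosol, was not called after R848 in WT (-0.07 ± 0.07, adjusted p = 0.558) or in KO (0.11 ± 0.07, adjusted p = 0.263). It was called lower in KO than in WT, at -0.58 ± 0.07 without stimulation and -0.41 ± 0.07 after R848. The signed differences of the responses (KO minus WT) of Dock2, Dock5 and Prex1, exchange factors of Rac, were 0.54 ± 0.13, 0.49 ± 0.14 and 0.43 ± 0.14.

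Of 22 genes in a list of kinases that phosphorylate the cytosolic subunits or make the lipids they bind, with their regulatory subunits and the phospholipase gene Pla2g4a, 7 were called higher and 4 lower in WT, and 11 and 3 in KO, where Pla2g4a was 1 of the 3 (-1.27 ± 0.34, adjusted p = 0.000951). Prkcd, a protein kinase C that phosphorylates the organizer, had 646 and 632 CPM in WT unstimulated libraries and 1131 and 1264 after R848. In KO it went from 423 and 419 to 1124 and 1132, so the genotypes met after R848. Its log2 change was 0.91 ± 0.09 in WT and 1.42 ± 0.08 in KO. Prkcb, another protein kinase C, changed by 0.61 ± 0.10 and 1.24 ± 0.09, and Pik3cg, the catalytic subunit of the phosphoinositide kinase that acts downstream of chemoattractant receptors, by 0.93 ± 0.11 and 1.70 ± 0.10. The signed difference of the responses was called above 0 for 8 of the 22 genes, among them Pik3r5, the regulatory partner of Pik3cg, at 1.02 ± 0.18 (adjusted p = 3.56e-06). Without stimulation 13 of the 22 were called lower in KO, among them Prkcb (-0.76 ± 0.10), Pik3cg (-0.80 ± 0.12) and Prkcd (-0.60 ± 0.09).

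The genes of NADPH supply divided. Of 11 tested, 3 were called higher and 6 lower in WT, and 3 and 5 in KO. Nadk, the kinase that makes NADP from NAD, had 1044 and 977 CPM in WT unstimulated libraries and 3732 and 3814 after R848, and in KO 789 and 737 against 3522 and 3487. It was higher by 1.90 ± 0.07 in WT and 2.20 ± 0.07 in KO. Pgd, which yields NADPH in the oxidative branch of the pentose phosphate pathway, was higher by 0.75 ± 0.07 and 1.14 ± 0.07, and of the nonoxidative branch Tkt changed by -0.90 ± 0.08 and -0.51 ± 0.07 and Taldo1 by 0.18 ± 0.08 and 0.54 ± 0.07, each called in both genotypes. Me2 and Idh1, which yield reduced cofactor from malate and isocitrate, changed in WT by -1.99 ± 0.32 and -1.06 ± 0.25, and in KO by -1.01 ± 0.19 and -0.78 ± 0.18.

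Of 6 genes of charge and pH handling, 2 were called higher and 1 lower in WT, and 3 and 1 in KO. Those called higher in both were the proton pump subunit genes Atp6v0d1, by 0.53 ± 0.14 and 0.54 ± 0.12, and Atp6v1a, by 0.46 ± 0.15 and 0.38 ± 0.12. Trpm2, a cation channel opened by products of oxidative stress, was lower like Hvcn1, with changes of -0.77 ± 0.11 and -0.32 ± 0.10. Of 12 genes that handle superoxide and peroxide, 7 were called higher and 3 lower in WT, and 6 and 2 in KO. Sod2, the mitochondrial superoxide dismutase, rose from 30.9 and 31.1 CPM to 1902 and 1809 in WT and from 40.7 and 29.8 to 1798 and 1576 in KO, log2 changes of 5.90 ± 0.14 and 5.62 ± 0.12. Txnrd1 and Prdx5, of the thioredoxin system, were higher by 3.25 ± 0.14 and 1.53 ± 0.07 in WT. Mpo, the granule enzyme that turns peroxide into hypochlorous acid and is transcribed in immature cells of the lineage, changed by -2.11 ± 0.13 in WT and -2.71 ± 0.14 in KO. Prdx2, which is abundant in red cells, was higher in KO by 2.81 ± 0.23 without stimulation and 4.01 ± 0.30 after R848, beside the erythroid marker sums given above. The 9 genes of other NADPH oxidases, among them Nox1, Nox4 and Duox1, did not reach the count needed for testing.

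Of 21 genes of transcription factors that have been studied at oxidase promoters, 7 were called higher and 7 lower in WT, and 9 and 5 in KO. Spi1, the myeloid ETS factor PU.1, had 608 and 594 CPM in WT unstimulated libraries and 899 and 1057 after R848, and in KO 474 and 459 against 964 and 909. Its log2 change was 0.71 ± 0.09 in WT and 1.01 ± 0.08 in KO. Nfkb1, a subunit of NF-kappaB, was higher by 1.77 ± 0.12 and 1.71 ± 0.11. Cebpb, which directs emergency granulopoiesis, was higher by 1.75 ± 0.09 and 0.97 ± 0.08, with a smaller response in KO (difference -0.77 ± 0.13, adjusted p = 3.57e-07), the opposite direction to Cyba and Ncf1. Jun, a component of AP-1, was higher in KO without stimulation by 1.28 ± 0.13, and after R848 it changed by -0.48 ± 0.18 in WT and -3.01 ± 0.14 in KO (difference -2.52 ± 0.25, adjusted p = 4.07e-21). Cebpe, which directs granule gene expression in maturing neutrophils, changed by -1.48 ± 0.16 and -0.90 ± 0.15.

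The genes most like each of the 6 were found as those with the smallest root mean square difference of centred log2 CPM over the 8 libraries, among 2919 genes with at least 50 counts on average. Ncf1 was closest to Pgd (0.10), the NADPH-producing enzyme named above, then to Gde1 and Antxr2 (0.11 each). Rac2 was closest to Notch2 and H2-D1 (0.04 each), Ncf4 to Gabarap (0.05), Flii (0.06) and H3f3a (0.07), Cybb to Shfm1 (0.06), Arpc4 and Fmnl1 (0.07 each), and Cyba to Dram1 (0.06), Hp and Tmem164 (0.07 each). The nearest to Hvcn1 were Plcb2 at 0.13, Klhl6 at 0.15 and Insr at 0.16, all from genes with more counts, since Hvcn1 itself was below the limit of 50 and genes of its own level were not compared. Among the 6 genes themselves the closest pair was Cybb and Rac2 (0.11), and Hvcn1 was at least 0.97 from each of the others. All profiles share the same 8 libraries and their scaling.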

How the data were processed

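The deposited values are raw counts per gene symbol for 8 libraries, without normalization. The authors trimmed reads with cutadapt 1.16, mapped them to mm10 with STAR 2.5.3a and counted them with HTSeq 0.6.1p1. The summary lines of that tool were left out of library sizes and tests, and 87.0% to 89.4% of the reads they and the genes hold were on genes. Genes with at least 1 count in at least 2 libraries were tested (12254). Tests were edgeR's robust quasi-likelihood tests (edgeR 4.0.16 in R 4.3.3) with TMM factors and 1 mean for each of 4 groups, with Benjamini-Hochberg adjustment over all genes tested. The standard error is the absolute log2 change divided by the square root of F. DESeq2 1.42.0, other filters and scalings, thinned counts, the replicate number as a block and leaving out each library were tried as alternatives.

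The 6 genes and the gene lists were chosen with earlier results of these data known. Other genes were named by rule: up to 3 in each list and direction with the smallest p and a mean of at least 10 counts, lists of 1 or 2 genes whole, and the 3 nearest profiles to each of the 6. Arhgdib after R848 was named after its values were seen, and some genes that the rule names are not reported here. The fit was tested on simulated counts, where it recovered 58 of 100 genes changed by 1 and 93 of 100 changed by 2 on the log2 scale in the WT response, and 47 and 88 of 100 in the difference of responses, with 12 false calls there. The simulation used 1 common dispersion and changed genes in WT with R848 only, up or down at random. Far fewer genes changed than were called in the data, so it cannot show how calls behave where they depend on scaling. Groups and replicate numbers came from the labels. The 2 libraries of a group differed somewhat beyond sampling noise, with chi-square over degrees of freedom between 1.05 in KO unstimulated and 1.67 in WT after R848, and were kept as separate. The floor of 3 reads covers counting error only, while the standard errors include the spread between libraries.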

Additional observations from a re-analysis of the deposited data

Results flagged for a closer look

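The R848 responses of 2 genes differed between genotypes by the interaction test. The response of Cyba was larger in Padi4 KO than in WT by 0.523 on the log2 scale (adjusted p = 0.002, edgeR), with 679 and 613 CPM rising to 842 and 1011 in WT and 415 and 443 rising to 909 and 868 in KO. The response of Ncf1 was larger by 0.509 (adjusted p = 1.35e-05), with 2900.3 and 2897 CPM rising to 4796 and 5071 in WT and 1703 and 1629.8 rising to 4116 and 3951 in KO. For both genes the distance between the genotypes was wider without stimulation than after R848 with TMM scaling (Cyba -0.59 and -0.06, Ncf1 -0.80 and -0.29) but not with scaling by neutrophil marker genes (Cyba -0.0033 and 0.50, Ncf1 -0.22 and 0.28), and the same unstimulated libraries enter both the genotype comparison and the difference of responses. The summed neutrophil marker genes were lower in KO than in WT libraries both without stimulation (104134 to 105716 against 125573 to 132190 CPM) and after R848 (86120 to 87434 against 104723 to 119284). Scaled to them the difference of responses was about as large, at 0.51 for Cyba (adjusted p = 0.122) and 0.50 for Ncf1 (adjusted p = 0.0706).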

How the results depend on the processing

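The R848 responses of the 6 genes kept direction and call at a false discovery rate below 0.1, without the 2-fold limit, in both genotypes under every alternative run and in all 8 fits that left out 1 library, where a lone library is assumed to vary like the others. Over 2-fold, the rises in KO (3) were 1 with DESeq2, relative log expression factors, edgeR's own filter, thinned counts or neutrophil marker genes, 0 with library size, and 1 to 3 with a library left out. They were 1 without either WT or either KO library with R848, and 2 without KO unstimulated replicate 1. Leaving out any 1 library with R848 took Ncf4 in WT over 2-fold, and leaving out KO replicate 1 with R848 made the fall of Hvcn1 in KO more than 2-fold (-1.06). The comparisons that involve genotype did not. For the difference of responses, the count called higher (2) was 1 with DESeq2, 1 with scaling by neutrophil marker genes (chosen after seeing the data), 0 with thinned counts and 0 to 2 with a library left out, and the count called lower was 0 to 1. Cybb was at -0.14 with DESeq2, -0.14 with relative log expression factors, -0.050 with library size, -0.29 with thinned counts and -0.31 to 0.022 with a library left out. Ncf4 was at -0.020, -0.021, -0.13 (thinned) and -0.18 to 0.18, and Rac2 at -0.027 (thinned) and -0.024 to 0.30. Leaving out WT replicate 1 with R848, or either KO library with R848, ended the calls of Cyba and Ncf1, and without WT replicate 2 with R848 Cybb was called lower. For KO against WT without stimulation, the count called lower (6) was 3 with library size and 0 with neutrophil marker genes, where Cybb, Ncf4 and Rac2 were at 0.15, 0.22 and 0.14. Ncf4 lost its call without KO replicate 1 with R848 (range -0.40 to -0.21). After R848, 4 genes were called lower: 1 with library size, 2 with only the libraries compared, and 0 with neutrophil marker genes, where 4 were called higher and Cybb, Cyba, Ncf1, Ncf4, Rac2 and Hvcn1 were at 0.17, 0.50, 0.28, 0.35, 0.40 and 0.57. Leaving out either KO unstimulated library, or a false discovery rate of 0.05, ended the call of Rac2, leaving out KO replicate 2 with R848 that of Ncf4, and leaving out WT replicate 1 with R848 added Cyba (-0.33), as did thinned counts (-0.24). With library size Cyba, Rac2 and Hvcn1 were at 0.15, 0.046 and 0.21. Hvcn1 was at 0.0020 with edgeR's own filter, 0.0041 with only the libraries compared and -0.32 to 0.087 with a library left out. The 3 scalings (library size, relative log expression, neutrophil marker genes) moved the median of all genes, and relative to it no change of the 6 genes moved by more than 0.013, which holds by construction since a scaling moves all genes together, against up to 0.24 with thinned counts. The cause of the other changes was not tested. Levels per kilobase in WT unstimulated libraries were 465 (Cybb), 868 (Cyba), 1006 (Ncf1), 361 (Ncf4) and 36.1 (Hvcn1) by longest transcript, and 388, 807, 267 and 29.0 for Cybb, Ncf1, Ncf4 and Hvcn1 by library size. Same-numbered libraries did not deviate together (r from -0.0057 to 0.036). This cannot decide whether the numbers are pairs, since libraries of a group differed only somewhat beyond sampling noise. With the replicate number as a block the difference of Rac2 was called (0.27, adjusted p = 0.0694), 3 genes in place of 2, as with edgeR's own filter (adjusted p = 0.0677). With 18 and 15 reads in the WT libraries with R848, depth limits what can be said of Hvcn1.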
